A study of Mus musculus with 4 samples.

Results

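Dense groups are stretches of mm9 where 3 or more CUT&RUN peaks of 1 list follow each other with adjacent centres at most 10 kb apart. They were found in each of the 2 analysed peak lists alone. The anti-GFP list held 56 such groups with 183 of its 7327 peaks, which is 2.50% of the list (exact 95% interval 2.15% to 2.88%). The anti-Myb list held 28 groups with 88 of its 3410 peaks, or 2.58% (2.07% to 3.17%). The 84 groups were chosen by the peak positions themselves, so their number, spacing and length are given as a description with no test.

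MEL cells are a mouse erythroleukemia line, blocked at an immature erythroid stage. All 4 libraries of the series came from MEL cells in the same medium, and each group had a single library. One was made with an anti-GFP antibody in cells labelled Myb-GFP, read here as carrying Myb tagged with GFP, and one with an anti-Myb antibody in MEL cells without that label. The remaining libraries, anti-GFP in MEL without the Myb-GFP label and the one labelled IgRab in MEL, were not analysed here. A background level from control cells therefore cannot be set beside these groups. How the tag was introduced, and whether the Myb-GFP cells are 1 clone, is not given in the sources used here. The files carry neither depth nor height, so a peak is either listed or not.

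MYB is a transcription factor that binds DNA directly and keeps immature blood cells dividing, and its level falls as erythroid cells mature. Factors of this kind often bind several neighbouring elements of 1 regulatory domain, for example a promoter and the enhancers around it. Groups of peaks can also arise where similar genes lie side by side, or where repeated sequence collects reads in any library.

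In both lists the groups were small. Of the 56 anti-GFP groups, 49 had 3 peaks, 4 had 4 peaks, and there was 1 each with 5, 6 and 9 peaks. Of the 28 anti-Myb groups, 25 had 3 peaks, 2 had 4 and 1 had 5. The anti-GFP groups had a median span of 10.9 kb (10873 bp), from 2830 bp to 36911 bp, with the middle 50% between 8810 and 16871 bp. The anti-Myb groups had a median span of 9874.5 bp, from 3004 bp to 20997 bp. The ranges of span length overlapped, with the longest spans in the anti-GFP list only. Together the groups covered 716 kb in the anti-GFP list and 315 kb in the anti-Myb list. Peaks in groups of exactly 2, the next smaller class, formed 591 anti-GFP and 320 anti-Myb groups.

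**Figure D1:**
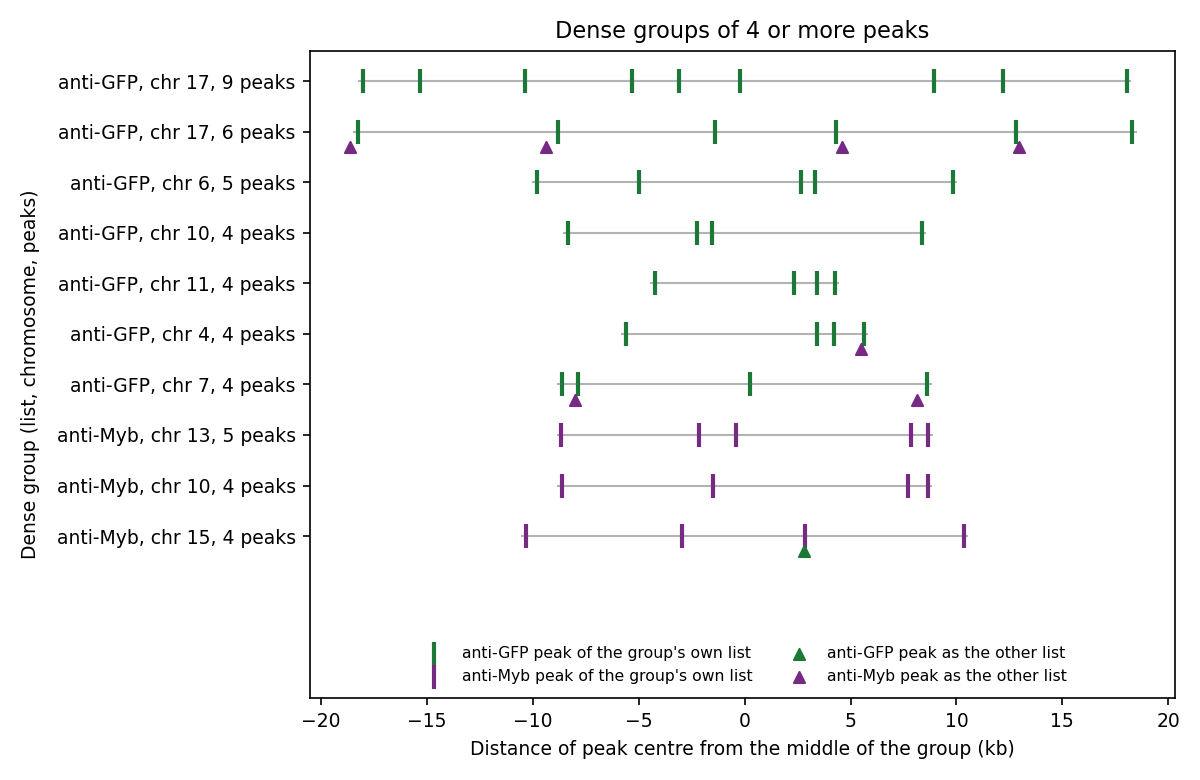
Positions of peak centres in the 10 dense groups with 4 or more peaks, as distance in kb from the middle of each group. Vertical ticks are peaks of the list that defined the group (green anti-GFP, purple anti-Myb) and triangles below are peaks of the other list inside the group or within 10 kb of it. The group of 9 peaks on chromosome 17 has no triangle, and the group of 6 peaks on the same chromosome has 4.

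The linking distance set which peaks belonged. In the anti-GFP list, the widest distances that joined peaks of a dense group were 9993 bp on chromosome 10 (79243095 to 79261755) and 9898 bp on chromosome 11 (105927539 to 105946223). Just outside, a stretch of 4 anti-GFP peaks on chromosome 16 (32689984 to 32715449) was split by a distance of 10024 bp. In the anti-Myb list the corresponding values were 9852 bp on chromosome 11 (70451328 to 70462364) and, just outside, 10231 bp on chromosome 3 (84259500 to 84283432). Stretches that a distance of 10 to 11 kb kept from being a dense group numbered 12 in the anti-GFP list and 7 in the anti-Myb list.

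The anti-GFP group with the most peaks lay on chromosome 17 from 15097158 to 15133586, a span of 36.4 kb with 9 peaks. Its adjacent centres were 2720, 4936, 5048, 2234, 2880, 9187, 3253 and 5834 bp apart, so the spacing had no single period. The nearest anti-Myb centre was 87.9 kb beyond the end of the group. Only the sixth and the eighth peak stood early in the anti-GFP file, at rows 573 and 1345, and the other 7 stood between rows 3201 and 5469 of 7327. This group held 9 of the 183 grouped anti-GFP peaks, the most that any group gave to the counts below.

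A second anti-GFP group on chromosome 17, from 34324691 to 34361601, was the longest, at 36.9 kb with 6 peaks, and had the most anti-Myb peaks. Inside it lay 3 anti-Myb centres, and 1 more lay just before its first peak. The fourth anti-GFP peak (34347279 to 34347615, row 284) was overlapped by the anti-Myb peak at 34347583 to 34347895 (row 499), with centres 292 bp apart. The fifth (34355775 to 34356111, row 535) was overlapped by the anti-Myb peak at 34355927 to 34356239 (row 2562), with centres 140 bp apart. Those 2 overlapped peaks stood earliest of the 6 in the anti-GFP file. The first and second anti-GFP peaks had an anti-Myb centre at 368 and 545 bp without overlap, and for the third and the last the nearest was 6021 and 5350 bp away. The 2 groups on chromosome 17 were thus of nearly equal length, with anti-Myb peaks along 1 of them and none along the other.

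The remaining anti-GFP groups of 4 or more peaks also fell into those with and without anti-Myb peaks. On chromosome 6 from 70742485 to 70762457, 5 peaks spanned 19.97 kb, and the nearest anti-Myb centre was 83.1 kb away. On chromosome 10 from 19304965 to 19322017, 4 peaks spanned 17.1 kb, and the nearest anti-Myb centre was 106 kb away. On chromosome 11 from 33901886 to 33910724, 4 peaks spanned 8.84 kb, the last 3 with adjacent centres 1082 and 844 bp apart, and the nearest anti-Myb centre was 53.3 kb away. These 3 groups, like the group of 9, had no anti-Myb peak inside.

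On chromosome 4 from 131621748 to 131633309, 4 anti-GFP peaks spanned 11.6 kb. Of these the last (131632973 to 131633309, row 554), the earliest of the group in the file, was overlapped by the anti-Myb peak at 131632860 to 131633172 (row 200), with centres 125 bp apart. On chromosome 7 from 150734532 to 150752129, 4 anti-GFP peaks spanned 17.6 kb with 2 anti-Myb centres inside. The second peak (150735296 to 150735632) was overlapped by an anti-Myb peak with centres 169 bp apart, and the last had an anti-Myb centre at 479 bp without overlap. In that group the earliest peak in the file, row 478, was 7881 bp from the nearest anti-Myb centre. So the overlapped peak was the earliest of its group on chromosome 4 and not on chromosome 7.

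The shortest and densest anti-GFP group lay on chromosome 1 from 87474478 to 87477307, with 3 peaks in 2.83 kb. Its second peak was overlapped by the anti-Myb peak at 87475075 to 87475387 and the third by the one at 87477186 to 87477498, with centres 163 and 203 bp apart. No anti-GFP group had all of its peaks overlapped, and this was 1 of 5 with 2 overlapped peaks. The group with the earliest median row lay on chromosome X from 166429277 to 166437444, with 3 peaks at rows 11, 14 and 741 and 2 of them overlapped by rows 4 and 1 of the anti-Myb list. The group with the latest median row lay on chromosome 4 from 129923715 to 129938213, with rows 6735, 6348 and 7054 and the nearest anti-Myb centre 36.1 kb away.

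Among anti-Myb groups, the one with the most peaks lay on chromosome 13 from 64533803 to 64551467. Its 5 peaks spanned 17.7 kb, their adjacent centres were 6527, 1745, 8237 and 843 bp apart, and the nearest anti-GFP centre was 30.2 kb away. A group of 4 on chromosome 10 from 39844569 to 39862179 spanned 17.6 kb, and its nearest anti-GFP centre was 10.1 kb away. Neither group had an anti-GFP peak inside. The longest anti-Myb group, 4 peaks in 20997 bp on chromosome 15 from 78135769 to 78156765, had a single anti-GFP peak inside. That peak (78148900 to 78149236, row 4737) overlapped the third anti-Myb peak (78148974 to 78149286, row 652), with centres 62 bp apart.

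Only 1 anti-Myb group held 2 anti-GFP centres, on chromosome 11 from 74351025 to 74369869. Its second peak (74360743 to 74361055, row 86) was overlapped with centres 44 bp apart, and the third missed an overlap, with centres 329 bp apart. The shortest and densest anti-Myb group, on chromosome 19 from 45295833 to 45298836, held 3 peaks in 3.004 kb and 1 overlapped peak. The group with the earliest median row, on chromosome 15 from 31462328 to 31469961 with rows 45, 109 and 1011, was 61.3 kb from the nearest anti-GFP centre. The group with the latest, on chromosome 9 from 63568358 to 63575075 with rows 3093, 2132 and 3165, was 55.3 kb from one.

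The next comparison asked whether grouped peaks were listed with the other antibody more or less often than other peaks. An anti-Myb peak overlapped 22 of the 183 grouped anti-GFP peaks, or 12.0% (exact 95% interval 7.69% to 17.6%), where 8.28% of all anti-GFP peaks were overlapped. For anti-GFP peaks in groups of exactly 2 the share was 6.18% (4.87% to 7.70%), and for single peaks 8.59% (7.89% to 9.33%). An anti-GFP peak overlapped 13 of the 88 grouped anti-Myb peaks, or 14.8% (8.11% to 23.9%), where 17.8% of all anti-Myb peaks were overlapped. Anti-Myb peaks in groups of 2 were overlapped at 16.3% (13.5% to 19.3%) and single ones at 18.3% (16.8% to 19.8%). Both intervals for dense groups included the share of the whole list, so a share that differs from it was not shown in either list. With 1 library per antibody these intervals cover the counting of peaks only, and peaks of 1 group are not independent of each other.

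A looser measure was a centre of the other list within 1 kb. By it the share of grouped anti-GFP peaks was above that of their list, and that of grouped anti-Myb peaks was not. Such a centre was found for 44 of the 183 grouped anti-GFP peaks, or 24.0% (18.0% to 30.9%), where 15.3% of all anti-GFP peaks had one. Those 44 peaks lay in 25 of the 56 groups and near 37 different anti-Myb peaks, so some were counted beside the same anti-Myb peak. The interval treats peaks as independent, which peaks of 1 group are not, so it does not show a difference from the whole list. Other linking distances were not tried for this share. Of the grouped anti-Myb peaks, 26 of 88 had an anti-GFP centre within 1 kb, or 29.5% (20.3% to 40.2%), where 32.5% of all anti-Myb peaks had one. In groups of exactly 2, 14.04% of anti-GFP peaks (12.1% to 16.2%) and 30.5% of anti-Myb peaks (26.9% to 34.2%) had such a centre. Both of these intervals included the share of the whole list.

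**Figure D2:**
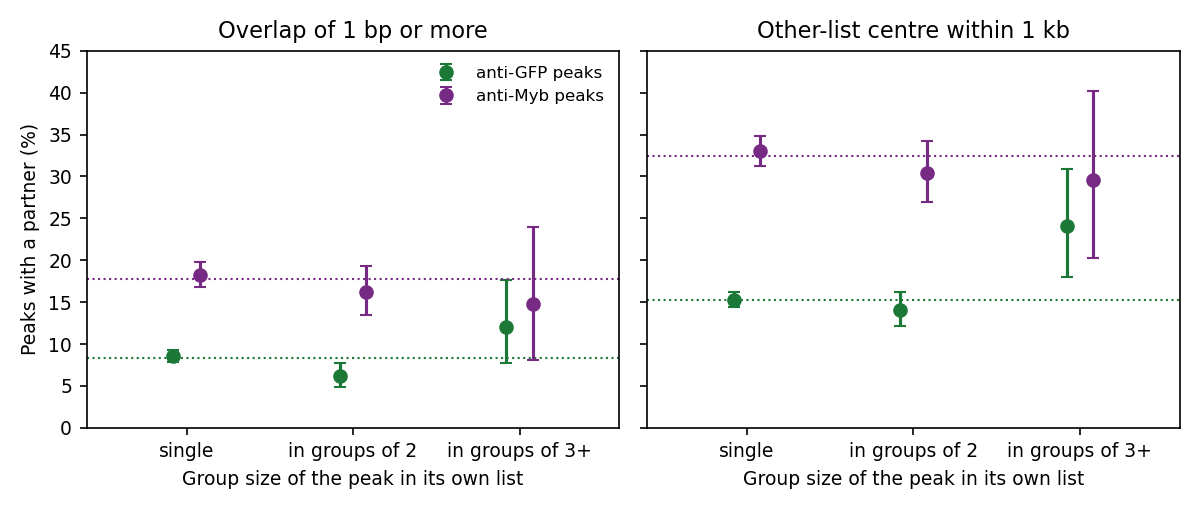
Share of peaks (%) with a partner in the other list, by the size of the group that the peak belongs to in its own list; points are shares, bars exact 95% binomial intervals over peaks, and dotted lines the share of the whole list. Overlap of grouped anti-GFP peaks (12.0%) and grouped anti-Myb peaks (14.8%) has intervals that include the dotted line. Within 1 kb the point for grouped anti-GFP peaks (24.0%) lies above theirs, with an interval that treats peaks of 1 group as independent.

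Counted by group, 17 of the 56 anti-GFP groups (30.4%) had at least 1 overlapped peak: 12 had 1 and 5 had 2. Of the 28 anti-Myb groups 12 (42.9%) did: 11 had 1 and 1 had 2. At least 1 anti-Myb centre lay inside the span of 23 anti-GFP groups, or 41.1% (28.1% to 55.02%), with 17 holding 1 centre, 5 holding 2 and 1 holding 3. At least 1 anti-GFP centre lay inside 17 anti-Myb groups, or 60.7% (40.6% to 78.5%), with 16 holding 1 and 1 holding 2. A difference between these shares is not read, since the anti-GFP list is the longer one and offers more peaks to fall inside. In most groups, then, the other antibody gave a peak at none or 1 of the positions. Over the whole lists, 8.28% of anti-GFP and 17.8% of anti-Myb peaks were overlapped. Shares that low leave most groups of 3 with none or 1, so this is not read as a trait of the groups.

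Where peaks of the other list fell inside a group, nearly all lay within 1 kb of one of its peak centres. Of the 30 anti-Myb centres inside anti-GFP groups, 29 lay within 1 kb of a peak centre of the group, at a median of 173 bp and a range of 5 to 1374 bp. All 18 anti-GFP centres inside anti-Myb groups lay within 1 kb of a peak centre, at a median of 252.5 bp and a range of 16 to 939 bp. Spans start and end at peaks and some are short, so part of each span lies within 1 kb of a peak centre by the rule. How large that part is was not computed. The density of the other list was higher inside the groups than beside them, a contrast that the rule partly sets. Anti-Myb centres numbered 4.19 per 100 kb inside anti-GFP groups (exact Poisson 95% interval 2.83 to 5.98), 0.89 in the first 10 kb beyond their ends and 0.76 from 10 to 50 kb. From 100 to 500 kb the density was 0.25, against 0.134 over all chromosomes. Centres of the anti-GFP list itself numbered 0.74 per 100 kb in that zone, against 0.29 over all chromosomes. Anti-GFP centres numbered 5.72 per 100 kb inside anti-Myb groups (3.39 to 9.04), 1.61 in the first 10 kb and 0.85 from 10 to 50 kb. From 100 to 500 kb the density was 0.62, against 0.29 over all chromosomes. Centres of the anti-Myb list itself numbered 0.40 in that zone, against 0.134 over all chromosomes. Peaks of a group's own list were thus also denser around it. The flank values of the other list are therefore not read as a relation between the antibodies. Each span starts and ends at a peak, so the inner density counts sequence next to peaks and is not a like-for-like level with the flanks.

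**Figure D3:**
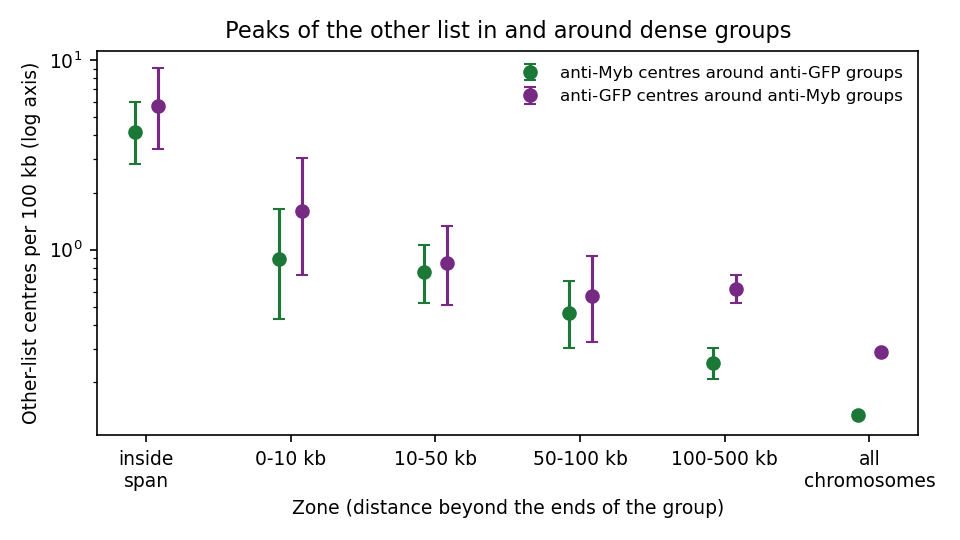
Centres of the other list per 100 kb (log axis) inside the dense groups, in 4 distance zones beyond both ends and over all chromosomes between the outermost peaks; bars are exact 95% Poisson intervals on the counts. Inside the spans the values were 4.19 (anti-Myb centres in anti-GFP groups) and 5.72 (anti-GFP centres in anti-Myb groups). At 100 to 500 kb they were 0.25 and 0.62, above the values for all chromosomes. Centres of each group's own list, not drawn, were also above theirs in that zone.

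Groups far from any peak of the other list were present in both lists. For 11 of the 56 anti-GFP groups and 4 of the 28 anti-Myb groups the nearest centre of the other list was over 100 kb from the group. Among grouped anti-GFP peaks 22.4% were that far from an anti-Myb centre, against 42.96% of the anti-GFP peaks outside dense groups. Among grouped anti-Myb peaks 13.6% were that far from an anti-GFP centre, against 14.4% outside. The anti-GFP groups thus lay nearer to anti-Myb peaks at this range than other anti-GFP peaks did, while for the anti-Myb groups the values were side by side. These shares were not tested, since there are no replicate libraries.

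No anti-GFP group overlapped an anti-Myb group. The nearest 2 lay 860 kb apart on chromosome 16, from 13436844 to 13447621 in the anti-GFP list and from 14307726 to 14317509 in the anti-Myb list, and they were the only such pair under 1000 kb. Within the anti-GFP list 3 pairs of groups were that close. The closest 2 lay on chromosome 12, from 55797047 to 55806399 and from 55831330 to 55840038, 24.9 kb apart. The others were 217 kb apart on chromosome 9 and 393 kb apart on chromosome 11. No 2 anti-Myb groups were within 1000 kb of each other. At this linking distance, then, no region was a dense group in both lists. The groups held only 2.50% of the anti-GFP and 2.58% of the anti-Myb peaks. Whether a count of 0 differs from what such small shares would give was not tested. A centre of the other list still lay inside 23 of the 56 anti-GFP groups and 17 of the 28 anti-Myb groups.

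Inside the groups, most steps between adjacent peaks were long, and some groups also held a close pair. Of 127 distances between adjacent anti-GFP centres, 27 (21.3%) were under 1100 bp, 22 (17.3%) were from 1100 to under 5000 bp and 78 (61.4%) were 5000 bp or more. Of 60 distances in anti-Myb groups, 10 (16.7%), 17 (28.3%) and 33 (55.0%) fell in these ranges. A close pair of under 1100 bp was present in 26 of the 56 anti-GFP groups and 10 of the 28 anti-Myb groups. In groups of exactly 2, which have 1 distance each, 228 of 591 anti-GFP distances (38.6%) and 50 of 320 anti-Myb distances (15.6%) were that short. Peaks of close pairs in dense groups were overlapped by the other list in 7 of 53 cases for anti-GFP (13.2%, 5.48% to 25.3%) and 4 of 20 cases for anti-Myb (5.73% to 43.7%). The other peaks of the groups were overlapped at 11.5% and 13.2%, which lie inside those intervals. The spacing itself was used to choose the groups and the 1100 bp limit was set after it was seen, so these are descriptions.

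**Figure D4:**
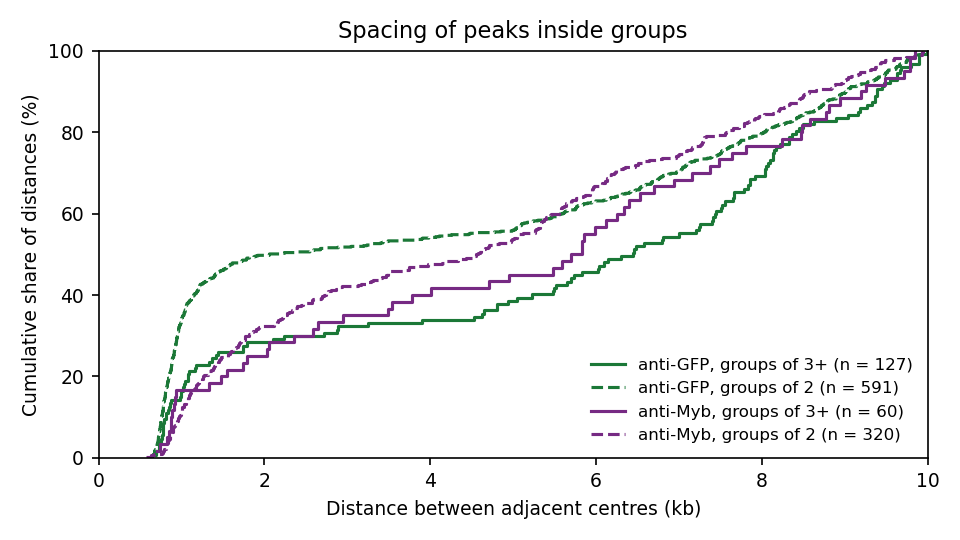
Cumulative share (%) of distances between adjacent peak centres in kb, for dense groups (solid) and groups of exactly 2 peaks (dashed) of each list. The anti-GFP curve for groups of 2 climbs most steeply at the left, with 38.6% of distances under 1100 bp, against 21.3% in anti-GFP dense groups.

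Position in the file was not used by the rule. The files do not state how rows are ordered, so an early row is not read as a strong peak. Grouped peaks stood earlier than others in both lists. The median grouped anti-GFP peak stood 32.1% of the way down the file (middle 50% of peaks 18.04% to 55.4%), the median peak in groups of 2 at 42.6% and the median single peak at 52.4%. For anti-Myb peaks the same medians stood at 30.01% (16.1% to 54.2%), 42.2% and 52.8%. The second part of the anti-GFP file, its last 50% of rows, held 30.6% of grouped peaks (24.02% to 37.8%), and that of the anti-Myb file 29.5% (20.3% to 40.2%). At the very top this was less marked: the first 10% of rows held 10.9% of grouped anti-GFP peaks (6.80% to 16.4%) and 14.8% of grouped anti-Myb peaks (8.11% to 23.9%). The order from single peaks to groups of 2 to dense groups was the same in both lists, and the ranges overlapped widely.

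**Figure D5:**
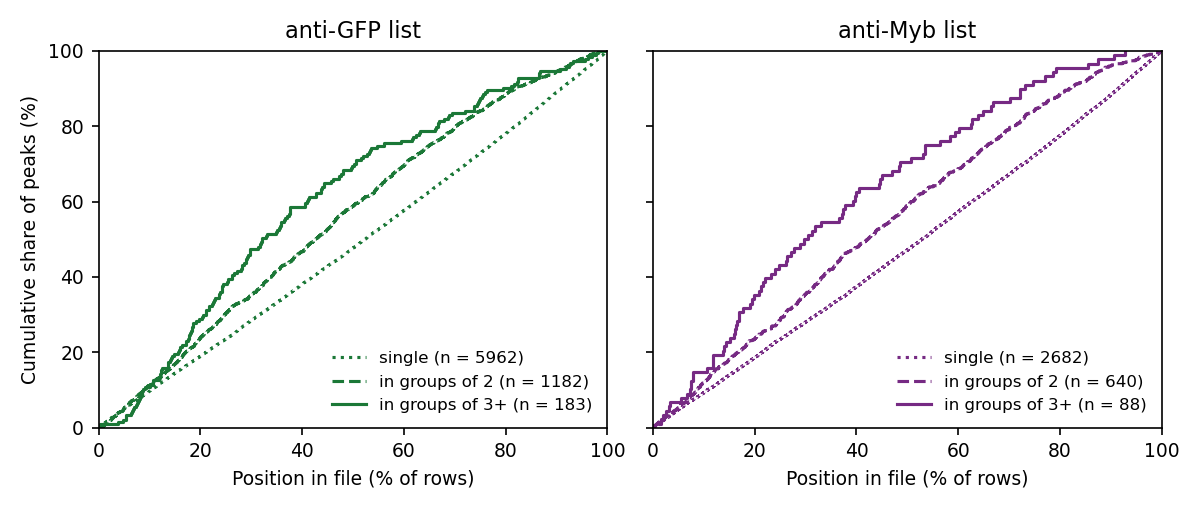
Cumulative share of peaks (%) against position in the file (% of rows), for single peaks (dotted), peaks in groups of 2 (dashed) and peaks in dense groups (solid) of each list. In both panels the solid curve lies above the dotted one over most of the range, with medians of 32.1% against 52.4% (anti-GFP) and 30.01% against 52.8% (anti-Myb).

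All peaks stood in the first 50% of rows in 25 of the 56 anti-GFP groups, and all in the last 50% in 7. For the anti-Myb groups these numbers were 12 and 2 of 28. In 11 of the 17 anti-GFP groups with an overlapped peak, the earliest peak of the group in the file was overlapped, and in 6 of 12 anti-Myb groups. Whether these counts differ from what groups of so few peaks would give at any order of rows was not tested. The 30 anti-Myb peaks inside anti-GFP groups stood at a median of 34.9% of their own file, with 10 of them in its last 50%. The 18 anti-GFP peaks inside anti-Myb groups stood at a median of 41.7% of theirs, with 8 in its last 50%.

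Dense groups were spread over 19 of the 20 chromosomes with peaks (1 to 19 and X) in the anti-GFP list and 15 in the anti-Myb list. Chromosomes 4 and 11 had the most anti-GFP groups, 7 each (12.5% of groups), and chromosome 11 the most anti-Myb groups, 4 (14.3%). Chromosome 11 also had the most peaks in both lists, 8.83% of each, and chromosome 4 held 6.69% of the anti-GFP peaks. Chromosome 17 held 21 of the 183 grouped anti-GFP peaks (11.5%) against 5.50% of the whole list, and 15 of the 21 were in the groups of 9 and 6 peaks. Without the group of 9 the chromosome held 12 of 174 grouped peaks (6.90%). Chromosome 15 held 10 of the 88 grouped anti-Myb peaks (11.4%) against 4.60% of that list. Chromosome 14 had no group in either list, with 228 anti-GFP and 75 anti-Myb peaks. Chromosomes 2, 6, 12 and X had no anti-Myb group, and chromosome 2 held 264 anti-Myb peaks. Over the whole lists only 2.50% of anti-GFP and 2.58% of anti-Myb peaks were grouped. Whether these absences differ from such small shares was not tested. No group lay on an unplaced or random sequence.

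As background on gene clusters, the mouse major histocompatibility complex lies on chromosome 17, the immunoglobulin kappa genes on chromosome 6, clusters of histone genes on chromosomes 13 and 3, the alpha-globin genes on chromosome 11 and the beta-globin genes on chromosome 7. Whether a group lies in such a cluster, or on repeated sequence, was not tested, because no gene, repeat or sequence annotation of mm9 was used here, and no gene is assigned to a group.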

How the data were processed

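Per the submitters' processing notes, the build was mm9 and the tools were HOMER 4.10.3, deepTools 3.4.2, STAR 2.7.9a, Picard 2.17.11, SAMtools 1.11 and Trim Galore 0.6.6. What each tool did, how peaks were thresholded and which control was used is not given in the sources used here. Another threshold would change which peaks are listed and so which groups form. Neither the deposited score, a constant 1, nor the peak width (337 bp throughout the anti-GFP list, 313 bp throughout the anti-Myb list) gave a height. Read depth is unknown. Each list came from 1 library, per the labels.

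Peaks were sorted by chromosome and centre and joined while adjacent centres were at most 10000 bp apart, and groups of 3 or more were kept. Coordinates are 1-based. The bedtools 2.31.1 cluster command found the same 56 and 28 groups, and the grouping was tested on simulated data. Shares have exact binomial (Clopper-Pearson) 95% intervals and densities exact Poisson ones. Python 3.11.15, NumPy 2.4.6, pandas 2.3.3, SciPy 1.17.1 and matplotlib 3.10.9 were used. No test was run, since the groups were chosen by these positions and there are no replicate libraries.

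Named regions were all groups with 4 or more peaks, overlapping groups of both lists, those with the most peaks of the other list, and the extremes of length, density and median row. Members, rules and lists were chosen with earlier results of these data known. Gene, repeat and motif analyses need an mm9 annotation and were not run; the gene table used here is of another build, GRCm38, and was not applied. Alternatives were other linking distances, group sizes, overlap definitions and subsets of peaks.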

Additional observations from a re-analysis of the deposited data

How the results depend on the processing

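The number of groups followed the rule. In the anti-GFP and anti-Myb lists, respectively, there were 8 and 7 groups with a linking distance of 5000 bp, 217 and 89 with 20000 bp, 7 and 3 with at least 4 peaks, and 31 and 12 when only the first 50% of rows was used. Peaks within 1000 bp counted once left 39 and 20 groups, against 56 and 28, so some groups rest on a close pair counted as 2 peaks. The distance counted between peak edges gave 63 and 29, and chromosomes 1 to 19 and X only gave 56 and 28. These 3 alternatives kept the counts within 1.5 times. Median spans were 5337 and 5854 bp at 5000 bp and 23159 and 20997 bp at 20000 bp. The share of grouped peaks overlapped by the other list was 4.37% (anti-GFP) and 4.55% (anti-Myb) with centres at most 100 bp apart, 22.95% and 28.4% when peaks up to 500 bp away counted, and 24.0% and 29.5% for centres at most 1000 bp apart. With at least 4 peaks the anti-Myb share was 7.69%, from 1 of 13 peaks, and 33.3% of the anti-Myb groups, 1 of 3, held an anti-GFP centre. With a linking distance of 20000 bp, 12 pairs of groups of the 2 lists overlapped, against 0 at 10000 bp, so the absence of shared groups depends on that distance. An alternative added after seeing the data left out the group with the most peaks of each list. It kept 174 of 183 grouped anti-GFP peaks and 83 of 88 grouped anti-Myb peaks. The shares overlapped, within 1 kb, over 100 kb away and by row position stayed within their intervals in both lists. So did the share of groups with a centre of the other list inside. With so few peaks left out these shares could hardly leave their intervals, so this is no check of them. The share of grouped anti-GFP peaks on chromosome 17 fell from 11.5% to 6.90%, as the group of 9 peaks lies there. Alternatives for gene clusters and repeats were not run for want of an mm9 annotation. As depth is unknown, an unlisted region is not shown to be unbound. No paired analysis was possible because each group has 1 library.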
